A study of Homo sapiens with 4 samples.

Results

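The genes of the E proteins (TCF3, TCF4 and TCF12) and of their inhibitors, the ID proteins (ID1, ID2, ID3 and ID4), were followed in U937-AE and U937-Mt cells. These are 7 of the 19775 genes named on the array, and they were taken whole, as every probe set whose annotation gives 1 of these genes and no other. The array holds 35 such probe sets among 54675, of which 26 belong to E protein genes and 9 to ID genes. A probe set is a group of short probes made to detect 1 transcript or a part of it, and the probe sets of a gene share its RNA, so they are repeated readings and not replicates.

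U937 is a human myeloid cell line. U937-AE is 1 clone of it that carries HA-tagged AML1/ETO, the fusion of AML1 (RUNX1) and ETO (RUNX1T1), behind the zinc-inducible mouse metallothionein promoter, and U937-Mt is a bulk population with the empty pSGMtNeo vector. Both were given 100 µM ZnSO4 for 8 hours, so the control also received zinc. Equal amounts of 3 RNA extractions made up 1 pool for either line, and 2 Affymetrix HG-U133 Plus 2.0 arrays were run from the same labeled pool, 4 arrays in all. With 1 pool per cell line no test between the cell lines could be made. The spread between array copies covers hybridization only. Both lines carry the vector, but the choice of 1 clone against a bulk population cannot be told apart from AML1/ETO.

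E proteins are basic helix-loop-helix transcription factors that pair with each other or with tissue-restricted partners such as TAL1 and bind the E-box, the short DNA motif CANNTG. ID proteins have the helix-loop-helix but no basic region, so that a pair of an E protein with an ID protein does not bind DNA. The ETO moiety of AML1/ETO is known to contact E proteins, and HEB, the product of TCF12, is one of them.

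The RefSeq start sites of the member genes are shown first, because these genes were compared between cells with and without an AML1 fusion, and because E-boxes are what E proteins bind. RefSeq (GRCh38.p14) gave 20 windows for the 7 genes, each of 250 bases before to 50 bases after a start site. None of the 20 holds the AML1 core TGTGGT or TGCGGT on either strand, which 19.6% of all 35116 windows of the same length hold. The E-box CANNTG, which reads as CANNTG on both strands, is in 11 of the 20 windows and in 68.7% of all windows. ID2 and ID4 have 1 window and 1 E-box each, and both E-boxes read CAGCTG. TCF4 has an E-box in 7 of its 10 windows, TCF12 in 2 of 5, and TCF3, ID1 and ID3 have 1 window each with none. The windows of ID2 and ID4 and that of the outermost TCF4 start site are given below on the strand of the gene, with the E-box in capitals. The arrays do not tell which start site a transcript came from, and a match of letters says nothing about binding in these cells. Most of the 20 windows belong to TCF4 and TCF12, and all are much shorter than the promoter regions the authors searched for AML1/ETO. By chromatin immunoprecipitation the authors found AML1/ETO at the ID2 promoter, so a window without the core does not mean a gene without binding.
ID2, chr2:8681806-8682105, plus strand: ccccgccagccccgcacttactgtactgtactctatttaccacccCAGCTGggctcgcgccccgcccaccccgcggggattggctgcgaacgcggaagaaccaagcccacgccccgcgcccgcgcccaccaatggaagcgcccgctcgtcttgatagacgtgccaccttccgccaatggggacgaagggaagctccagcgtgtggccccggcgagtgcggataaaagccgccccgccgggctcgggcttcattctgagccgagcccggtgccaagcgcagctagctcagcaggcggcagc
ID4, chr6:19837120-19837419, plus strand: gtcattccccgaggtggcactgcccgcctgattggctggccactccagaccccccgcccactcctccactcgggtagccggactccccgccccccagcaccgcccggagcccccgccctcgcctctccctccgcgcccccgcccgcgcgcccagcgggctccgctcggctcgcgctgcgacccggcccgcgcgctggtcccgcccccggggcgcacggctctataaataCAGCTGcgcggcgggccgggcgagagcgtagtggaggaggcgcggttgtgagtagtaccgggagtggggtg
TCF4, chr18:55635908-55636207, minus strand: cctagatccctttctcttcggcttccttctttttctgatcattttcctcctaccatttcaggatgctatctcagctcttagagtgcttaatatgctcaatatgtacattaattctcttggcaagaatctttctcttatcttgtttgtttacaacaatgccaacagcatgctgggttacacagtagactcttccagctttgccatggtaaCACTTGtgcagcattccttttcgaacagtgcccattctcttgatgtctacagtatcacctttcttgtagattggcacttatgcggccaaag

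The transgene was checked first. The RUNX1T1 probe set 216831_s_at read 1361.5 and 1299.0 on the U937-AE arrays, against 8.6 and 7.6 on the U937-Mt arrays. Both U937-Mt values lie below the floor, the median signal of each array (119.5 and 129.7 for U937-AE, 146.8 and 153.6 for U937-Mt), to which lower values were raised. In U937-AE cells the signal was thus at least 8.86-fold higher, as the labels have it. Of the other RUNX1T1 probe sets none showed the transgene, as 5 did not reach the floor on any array and 216832_at overlapped between the cell lines, with 181.9 and 95.5 in U937-AE cells, beside 276.6 and 121.2 in U937-Mt cells. Signals are GCOS values scaled to a trimmed mean of 499.9 on every array. Correlations between array copies across probe sets were 0.935 for U937-AE and 0.919 for U937-Mt, and those between arrays of different cell lines were 0.910 to 0.916. Spike-in controls were brighter on the U937-Mt arrays, by 1.27-fold, and probe sets for 18S rRNA were brighter on the U937-AE arrays, by 6.60-fold. The part of these differences in the results below was not tested beyond a rescaling to the spike-ins. Monocytic markers also differed, as 5 of 8 measured ones were lower in U937-AE cells (MPO, LYZ, SPI1, ITGB2 and ITGAM) and 1 was higher (PTPRC), and the summed signal of all 10 on the array was 19107.7 to 20744.8 on the U937-AE arrays and 40181.0 to 41052.8 on the U937-Mt arrays. Of the markers of T cells, B cells, erythroid cells and plasmacytoid dendritic cells, 1 of 8, 5 of 7, 5 of 6 and 3 of 6 were measured, and none passed the rule for a change. The part of these marker differences in the results below was not tested.

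A probe set is called changed where the 4 possible array pairs, U937-AE over U937-Mt, all passed 1.5-fold in 1 direction, and measured where its mean log2 signal reached the mean floor in at least 1 pool. By this rule TCF4 was higher and ID2 was lower in U937-AE cells on every probe set that names only these genes, while TCF12 and all TCF3 probe sets but 1 did not pass. Of the 35 member probe sets 27 were measured, of which 9 rose, 3 fell and 15 did not pass. Among all 23493 measured probe sets 2.66% were higher and 5.37% were lower by the same rule, or 8.03% in either direction. The 9 higher probe sets were all E protein probe sets (9 of 22 measured, with none lower), and 8 of them belong to TCF4. The remaining one, 202648_at, is annotated to TCF3, but that annotation is in doubt, and without it 8 of 21 measured E protein probe sets were higher. The 3 lower ones were all ID probe sets (3 of 5 measured, with none higher), and the call of 1 of them, in ID4, was lost when the arrays were scaled otherwise. In bulk RNA, fewer cells with a transcript and less of it per cell cannot be told apart.

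**Figure D1:**
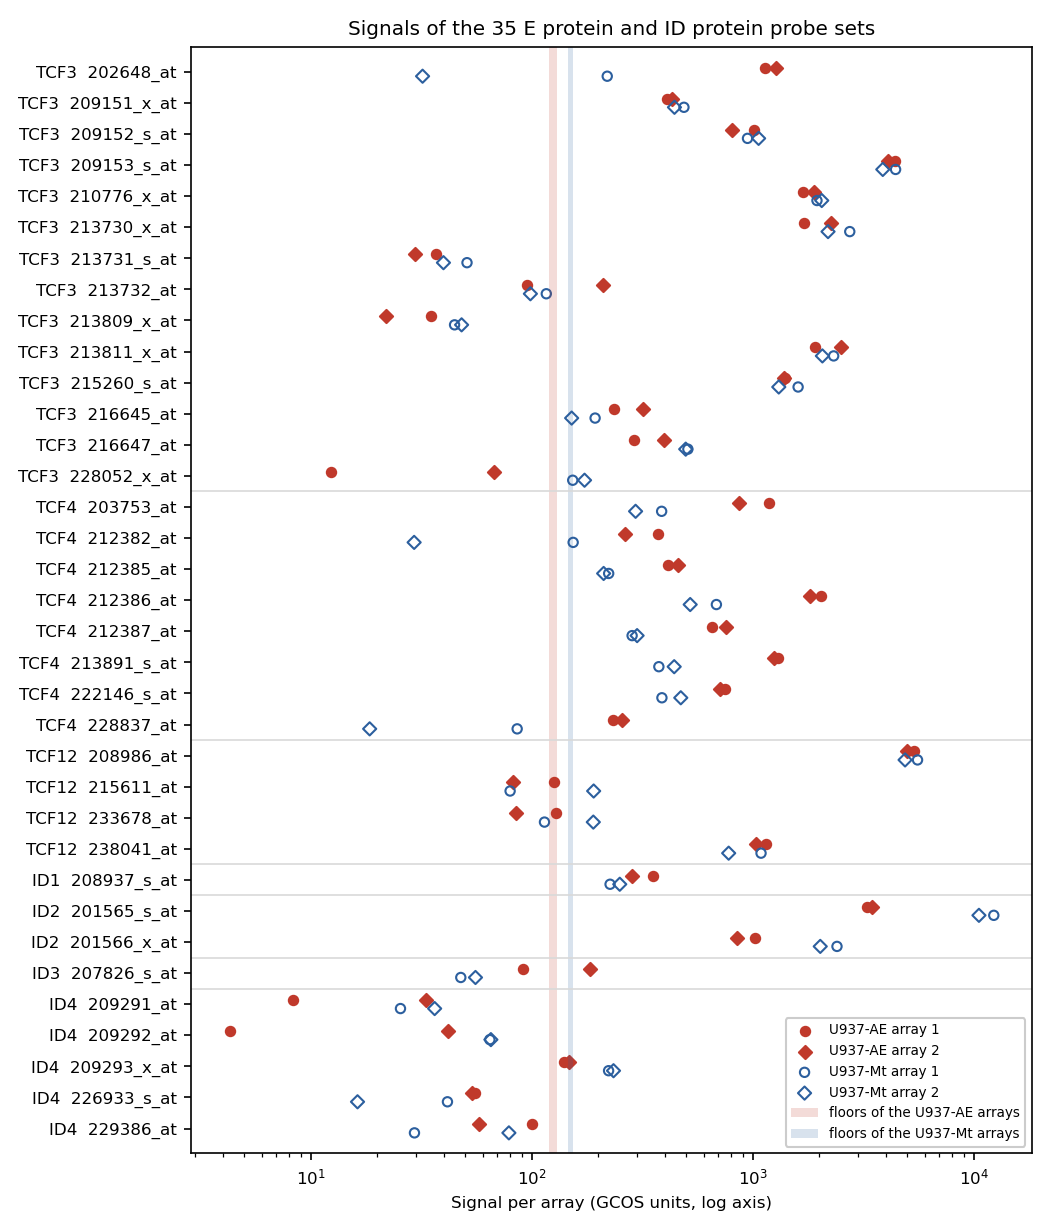
Signal of each of the 35 probe sets on the 4 arrays (log axis), filled for U937-AE and open for U937-Mt, with shaded bands for the floors of each cell line. All TCF4 points of U937-AE lie to the right of those of U937-Mt, and both ID2 probe sets show the opposite order. Of the 35 probe sets 20 lie above the floors on all arrays, and the 8 that were not measured stay near or under them.

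TCF4 encodes E2-2, an E protein known for its role in plasmacytoid dendritic cells and B cells, and has 8 probe sets on the array. Probe set 212386_at read 2036.6 and 1809.8 on the U937-AE arrays, against 685.3 and 521.6 on the U937-Mt arrays. Probe set 213891_s_at read 1296.4 and 1252.6 in U937-AE cells, compared with 376.3 and 441.5 in U937-Mt cells. Probe set 203753_at read 1185.5 and 869.1 on the arrays of U937-AE cells, versus 387.4 and 295.3 on those of U937-Mt cells. In all 3 the U937-AE arrays were above both U937-Mt arrays with no overlap. Signals were 3.21-fold (2.64 to 3.90 over the 4 comparisons), 3.13-fold (2.84 to 3.45) and 3.0-fold (2.24 to 4.01) higher in U937-AE cells.

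The other 5 TCF4 probe sets were also higher in U937-AE cells. Probe set 212387_at read 652.5 and 753.5 in U937-AE cells, compared with 284.8 and 300.0 in U937-Mt cells, a 2.40-fold difference (2.18 to 2.65). Probe set 212385_at read 414.8 and 457.6 on the arrays of U937-AE cells, versus 223.1 and 211.7 on those of U937-Mt cells, a 2.00-fold difference (1.86 to 2.16). In both the array copies differed by 1.15-fold at most. Probe set 222146_s_at read 748.8 and 714.7 in U937-AE cells, compared with 388.5 and 472.9 in U937-Mt cells, and its 1.71-fold difference came closest to the threshold, as its smallest comparison was 1.51-fold.

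Part of the U937-Mt values was below the floor in the last pair of TCF4 probe sets. Probe set 212382_at read 373.6 and 265.4 on the arrays of U937-AE cells, versus 154.1 and 29.4 on those of U937-Mt cells, so that 1 U937-Mt array was raised to its floor and the difference was 2.05-fold (1.72 to 2.43). Probe set 228837_at read 234.6 and 255.6 in U937-AE cells, compared with 86.0 and 18.5 in U937-Mt cells, where both arrays lie under the floor, so that in U937-AE cells its signal was higher by at least 1.63-fold. The size of the difference depends on the floor in both, as the log2 differences were 2.23 for 212382_at and 2.62 for 228837_at with no floor, against 1.03 and 0.71 with it, so they cannot be ranked against the other TCF4 probe sets. All 8 U937-AE pairs were above all U937-Mt pairs of the same probe set. Among all measured probe sets the arrays of U937-AE lay above those of U937-Mt without overlap in 27.1%, and below them in 34.2%, so the order alone is common here. The median log2 difference of the TCF4 probe sets was 1.15 (0.71 to 1.68, with 228837_at at its bound), beside -0.08 over all measured probe sets. Fewer were called under stricter rules, namely 4 of 8 at 2-fold, 3 of the 5 still measured with the floor at the 75th percentile, and 5 of 8 by the methods' t-test on the array copies before adjustment and 0 after it.

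TCF12 encodes HEB, and its mRNA did not pass the rule. Probe set 208986_at read 5389.5 and 4990.0 on the arrays of U937-AE cells, versus 5570.9 and 4892.3 on those of U937-Mt cells, so the arrays of the cell lines overlapped. The log2 difference was -0.01 (SD over the 4 comparisons 0.13), and the comparisons ran between 0.91- and 1.12-fold. Probe set 238041_at read 1143.6 and 1039.3 in U937-AE cells, compared with 1091.1 and 778.8 in U937-Mt cells, which overlap as well, with a log2 difference of 0.24 (SD 0.29) and comparisons between 0.95- and 1.47-fold. The remaining TCF12 probe sets, 215611_at and 233678_at, were not measured, with signals of 82.0 to 129.2 in U937-AE and 79.9 to 190.8 in U937-Mt. None of the TCF12 comparisons thus reached 1.5-fold in a measured probe set. The arrays read RNA and say nothing of HEB protein, which the authors found to be raised by zinc in U937-AE cells only.

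TCF3 encodes E12 and E47, a pair of E proteins made by alternative splicing, and has 14 probe sets, of which 12 were measured. Of these 1 rose and 11 did not pass. Probe set 209153_s_at read 4396.5 and 4080.1 on the arrays of U937-AE cells, versus 4432.3 and 3878.9 on those of U937-Mt cells, and the values overlap (log2 difference 0.03, SD 0.13). Probe set 213811_x_at read 1906.3 and 2500.0 in U937-AE cells, compared with 2325.1 and 2067.2 in U937-Mt cells, again with overlap (log2 difference -0.01, SD 0.25). Probe set 215260_s_at read 1403.8 and 1379.3 on the arrays of U937-AE cells, versus 1605.4 and 1312.6 on those of U937-Mt cells (log2 difference -0.06, SD 0.17). The U937-AE values lay between those of U937-Mt. Probe set 213730_x_at read 1705.7 and 2262.4 in U937-AE cells, compared with 2749.7 and 2192.6 in U937-Mt cells, which overlap, with a log2 difference of -0.32 (SD 0.30). Probe sets 209151_x_at, 209152_s_at, 210776_x_at and 213732_at had log2 differences from -0.16 to 0.08, and 213731_s_at and 213809_x_at were below the floor on all arrays.

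A few TCF3 probe sets came near the threshold, in opposite directions. Probe set 216645_at read 236.1 and 319.9 on the arrays of U937-AE cells, versus 193.7 and 151.7 on those of U937-Mt cells, where the smaller value lies under the floor, and its comparisons were 1.22- to 2.08-fold. Probe set 216647_at read 290.9 and 395.3 in U937-AE cells, compared with 509.1 and 497.8 in U937-Mt cells, with comparisons of 1.26- to 1.75-fold in the other direction. Neither passed. Probe set 228052_x_at read 12.4 and 67.3 on the arrays of U937-AE cells, versus 153.4 and 173.5 on those of U937-Mt cells, so both U937-AE arrays are under the floor and the signal was at least 1.31-fold lower, short of the rule; with no floor its log2 difference would be -2.50.

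The TCF3 probe set that passed stands apart from the rest of its gene. Probe set 202648_at read 1137.9 and 1271.5 on the U937-AE arrays, against 219.8 and 32.1 on the U937-Mt arrays. The U937-Mt copies were 6.85-fold apart and 1 of them was below the floor, while the U937-AE copies were 1.12-fold apart. Its signal was 6.55-fold higher in U937-AE cells (5.18 to 8.28), a log2 difference of 2.71 that ranks at number 42 by size among the measured probe sets. The other 11 measured TCF3 probe sets had a median log2 difference of -0.14 and ran between -0.57 and 0.67. Its annotation to TCF3 is in doubt, since the probe set numbered next to it on the array is annotated to RPS19, a ribosomal protein gene, and which transcript it detects was not tested.

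**Figure D2:**
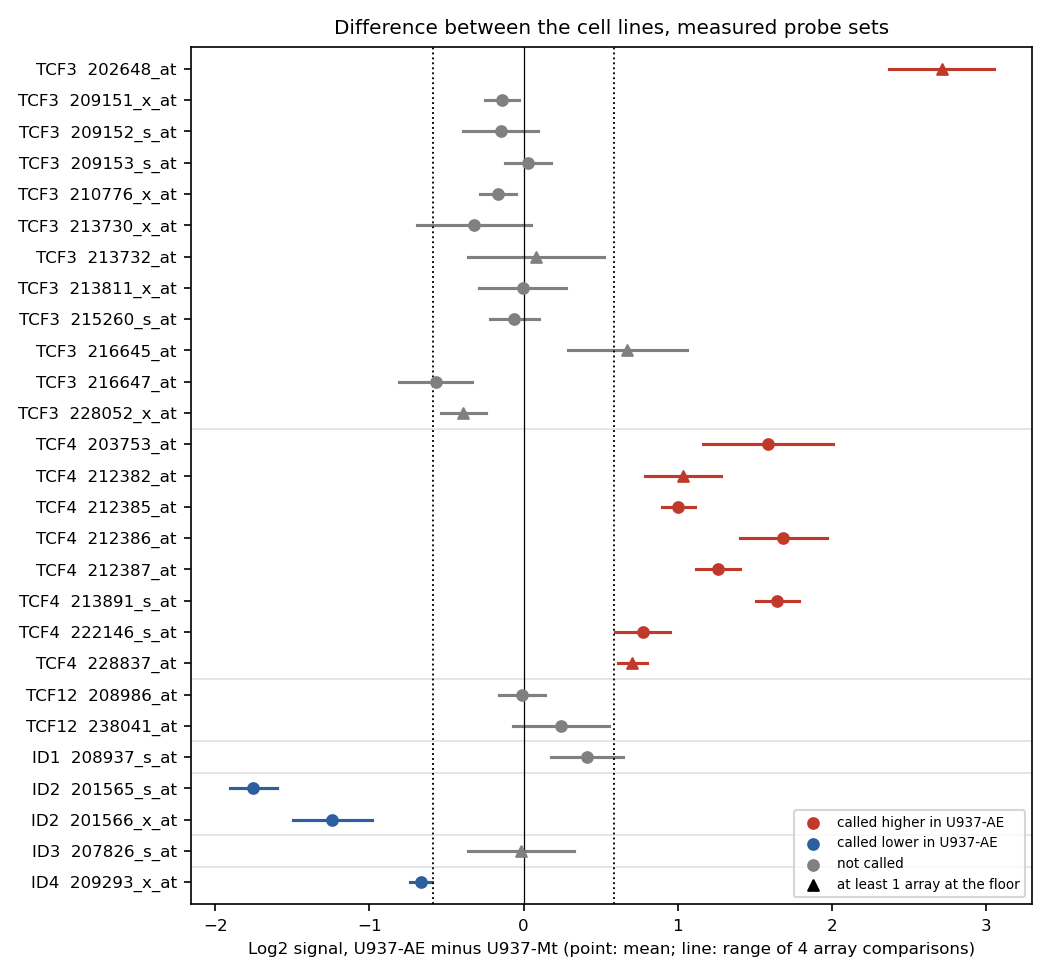
Log2 difference of U937-AE minus U937-Mt for the 27 measured probe sets; points are the means, lines span the 4 array comparisons, dotted lines mark 1.5-fold, and triangles have at least 1 array at the floor. The 8 TCF4 probe sets lie between 0.71 and 1.68, those of ID2 at -1.75 and -1.24, and those of TCF12 near 0, while 1 TCF3 probe set lies at 2.71, far from the other 11.

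ID2, an inhibitor of E proteins with roles in natural killer cells and in subsets of dendritic cells, was lower in U937-AE cells. Probe set 201565_s_at read 3288.4 and 3483.7 on the U937-AE arrays, against 12328.8 and 10562.4 on the U937-Mt arrays. Probe set 201566_x_at read 1022.7 and 853.2 in U937-AE cells, compared with 2407.0 and 2021.9 in U937-Mt cells. No array was near the floor, and the U937-AE arrays were below the U937-Mt arrays in both. Signals were 3.37-fold (3.03 to 3.75) and 2.36-fold (1.98 to 2.82) lower in U937-AE cells, with array copies within 1.20-fold of each other. The difference of -1.75 for 201565_s_at is number 131 from the lowest among measured probe sets. Both probe sets were also called lower when the arrays were rescaled to the spike-ins. At 2-fold only 201565_s_at was called, and the methods' t-test on the array copies called both before adjustment and 0 after it.

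Another probe set, 213931_at, names ID2 together with ID2B, an ID2 pseudogene, and was left out of the counts. It read 482.2 and 456.1 on the arrays of U937-AE cells, versus 1495.8 and 1439.7 on those of U937-Mt cells, and was 3.13-fold lower in U937-AE cells (2.99 to 3.28). The probe set of ID2B alone, 210911_at, was not measured, with 16.3 and 22.7 in U937-AE cells, beside 32.8 and 80.5 in U937-Mt cells, all below the floor. The readings that name ID2 were thus all lower in U937-AE cells, with or without the pseudogene.

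The other ID genes gave weaker or mixed readings. ID1, a direct target of BMP signaling, has 1 probe set, 208937_s_at, which read 353.7 and 283.4 in U937-AE cells, compared with 226.4 and 250.4 in U937-Mt cells. The U937-AE values were above those of U937-Mt, but comparisons of 1.13- to 1.56-fold did not pass. ID3, which restrains E proteins in lymphocytes, has 1 probe set, 207826_s_at, with 91.5 and 184.1 in U937-AE cells, beside 47.8 and 55.7 in U937-Mt cells. Only 1 of these 4 values is above its floor, so no direction was called, although the unfloored log2 difference is 1.33.

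ID4, the ID gene best known from the nervous system, has 5 probe sets, of which 4 were below the floor on all arrays. The fifth, 209293_x_at, read 140.7 and 147.7 on the arrays of U937-AE cells, versus 222.9 and 234.6 on those of U937-Mt cells, without overlap, and was 1.59-fold lower in U937-AE cells (1.51 to 1.67). The call rests on the scaling of the arrays. It was lost after quantile normalization (log2 difference -0.42), with the arrays at the same median (-0.40) and after rescaling to the spike-ins (-0.32).

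**Figure D3:**
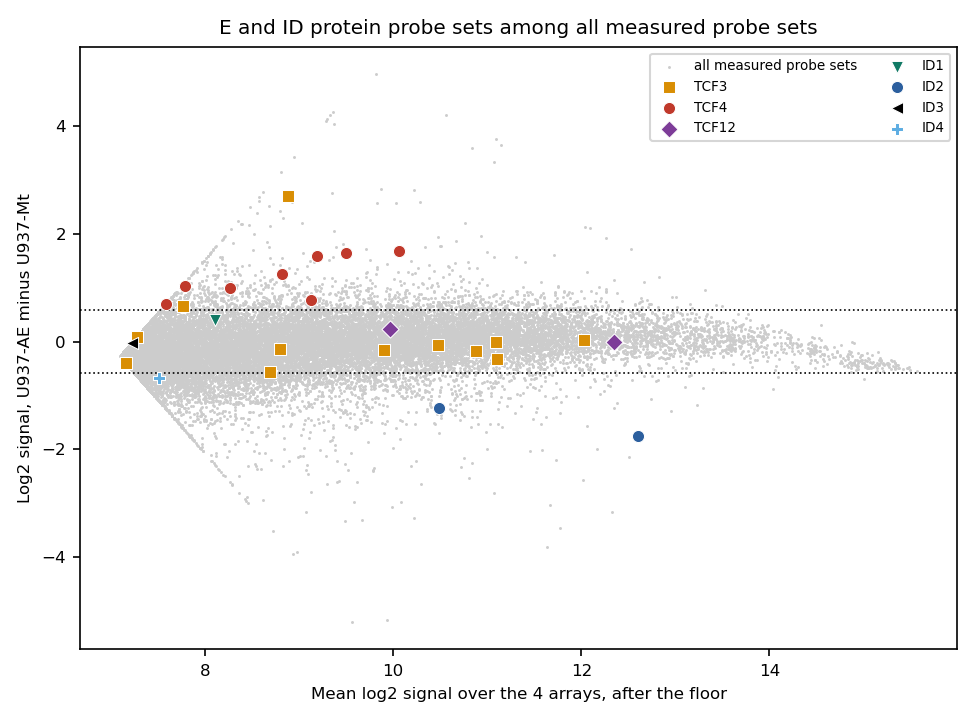
Log2 difference of U937-AE minus U937-Mt against mean log2 signal after the floor, for all measured probe sets (grey) and the members (coloured by gene); dotted lines mark 1.5-fold. The TCF4 probe sets and 1 TCF3 probe set lie above the bulk and those of ID2 below it, and the straight grey edges on the left come from the floor.

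Genes around the E and ID proteins were then read by list, each gene by the probe set that was brightest on average, in log2 and without the floor. Of the 184 genes listed, the members themselves not counted, 108 were measured, of which 9 rose, 9 fell and 90 did not pass, with a median log2 difference of -0.07. Among all 12934 measured genes 2.6% were higher and 6.12% lower, and the median was -0.10. The share of listed genes that fell was thus near the background, and the share that rose was above it. The lists were chosen with earlier results of these data known, so the higher share is not a result about them. Fewer rose by other readings of a gene, 5 with the median of its probe sets and 6 without probe sets whose names end in _x_at or _s_at.

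Partners come first. Of the 46 class II partners, the tissue-restricted factors that pair with E proteins, only 11 were measured, and 1 fell. OLIG1, a factor of oligodendrocytes, read 42.9 and 93.8 in U937-AE cells, compared with 1036.2 and 894.2 in U937-Mt cells, and was at least 7.73-fold lower. LYL1, a hematopoietic partner close to TAL1, read 2311.9 and 2270.6 on the arrays of U937-AE cells, versus 3426.7 and 3264.7 on those of U937-Mt cells, and its 1.46-fold difference did not pass. TAL1 itself read 236.1 and 193.3 in U937-AE cells, beside 227.0 and 365.2 in U937-Mt cells, which overlap.

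In the complex that TAL1 and E proteins form with LMO and LDB proteins, 11 of 12 genes were measured, of which 2 rose and 1 fell. LMO2, the LIM-only bridge of the complex, read 1526.1 and 1433.5 in U937-AE cells, compared with 2608.1 and 3432.6 in U937-Mt cells, and was 2.02-fold lower (1.71 to 2.39). LMO4, a LIM-only protein of the same family, read 2303.0 and 2182.4 on the arrays of U937-AE cells, versus 1046.9 and 913.0 on those of U937-Mt cells, and was 2.29-fold higher. SSBP2, which stabilizes LDB proteins, read 2500.6 and 2290.9 in U937-AE cells, compared with 1171.6 and 855.5 in U937-Mt cells, and was 2.39-fold higher. The arrays of the cell lines did not overlap in any of these 3 genes.

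Of the coregulators of E proteins 11 of 13 were measured, and 1 fell. CBFA2T3, a paralog of ETO that binds E proteins, read 97.8 and 168.0 on the arrays of U937-AE cells, versus 1146.5 and 1037.8 on those of U937-Mt cells, and was 7.70-fold lower in U937-AE cells (6.18 to 9.59), with 1 U937-AE array at the floor. By this rule RUNX1T1 is read here by 216832_at, since the very low U937-Mt values of 216831_s_at lower its mean, and the transgene is therefore not among the calls of this list. The other coregulators, among them the acetyltransferase genes EP300 and CREBBP, did not pass. None of the 7 measured genes for the turnover of E and ID proteins passed, and STUB1, a ubiquitin ligase, came nearest with 8718.9 and 8017.3 in U937-AE cells, beside 5376.5 and 6082.6 in U937-Mt cells, a 1.46-fold difference.

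BMP signaling is a known inducer of ID genes, and 15 of its 22 listed genes were measured, of which 2 rose and 2 fell. BMPR1B, a type I receptor, read 1033.4 and 1021.1 in U937-AE cells, compared with 115.5 and 108.1 in U937-Mt cells, and was at least 6.84-fold higher. NOG (noggin), which captures BMP ligands, read 384.4 and 449.7 on the arrays of U937-AE cells, versus 203.5 and 126.4 on those of U937-Mt cells, and was 2.35-fold higher with 1 U937-Mt array at the floor. So a receptor and an antagonist both rose. SMAD7, an inhibitory SMAD, read 195.4 and 153.8 in U937-AE cells, compared with 416.6 and 416.5 in U937-Mt cells, and was 2.40-fold lower. The ligand BMP7 read 331.3 and 311.9 on the arrays of U937-AE cells, versus 674.1 and 569.9 on those of U937-Mt cells, and was 1.93-fold lower.

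Known targets of E proteins and the cell cycle genes they act on were read next. None of the 13 measured lymphoid targets passed, with a median of -0.09. Of 14 measured cell cycle genes 4 rose and none fell (median 0.25), of which 3 are inhibitors of cyclin-dependent kinases. Medians of the lists around the members ran from -0.33 in the class II partners to 0.30 in the BMP list. CDKN1A (p21), an E protein target, read 556.1 and 601.3 in U937-AE cells, compared with 49.2 and 154.3 in U937-Mt cells, and was 3.84-fold higher with 1 U937-Mt array at the floor. CDKN1B (p27) read 5819.4 and 5900.9 on the arrays of U937-AE cells, versus 3533.1 and 3444.5 on those of U937-Mt cells, and was 1.68-fold higher. CDKN2B (p15) read 259.0 and 316.3 in U937-AE cells, compared with 15.2 and 77.3 in U937-Mt cells, both under the floor, and was at least 1.91-fold higher. The cyclin gene CCND1 read 607.2 and 446.8 on the arrays of U937-AE cells, versus 155.6 and 263.6 on those of U937-Mt cells, and its 2.57-fold difference had a wide range (1.69 to 3.90).

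TCF4 is known as a master factor of plasmacytoid dendritic cells, so genes of that lineage were read too. Of 13 measured, 1 rose and 2 fell (median -0.27). BCL11A, a transcription factor that acts beside TCF4, read 7267.1 and 7339.1 in U937-AE cells, compared with 4017.5 and 3801.8 in U937-Mt cells, and was 1.87-fold higher. IRF8, an interferon regulatory factor, read 228.5 and 166.5 on the arrays of U937-AE cells, versus 870.5 and 765.1 on those of U937-Mt cells, and was 4.18-fold lower (3.35 to 5.23). SPIB, an ETS factor, read 115.4 and 33.7 in U937-AE cells, compared with 274.2 and 202.3 in U937-Mt cells, and was at least 1.89-fold lower. The summed signal of all 20 genes of this list was 16744.5 to 17253.8 on the U937-AE arrays and 14320.4 to 14645.8 on the U937-Mt arrays. The median and the sum thus differ in direction, but BCL11A alone rose by more signal than the whole sum did. The median is over the 13 measured genes, while the sum also holds the genes that were not measured.

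Of 17 measured factors that bind E-boxes or related motifs without being E proteins, 2 fell. BHLHE40, a repressor that binds E-boxes, read 233.9 and 270.3 on the arrays of U937-AE cells, versus 1557.1 and 1567.6 on those of U937-Mt cells, and was 6.21-fold lower (5.76 to 6.70). TFEC, of the MITF family, read 244.0 and 279.0 in U937-AE cells, compared with 472.3 and 445.5 in U937-Mt cells, and was 1.76-fold lower. MYC read 17356.3 and 15916.9 in U937-AE cells, beside 16004.6 and 15382.6 in U937-Mt cells, which overlap.

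**Figure D4:**
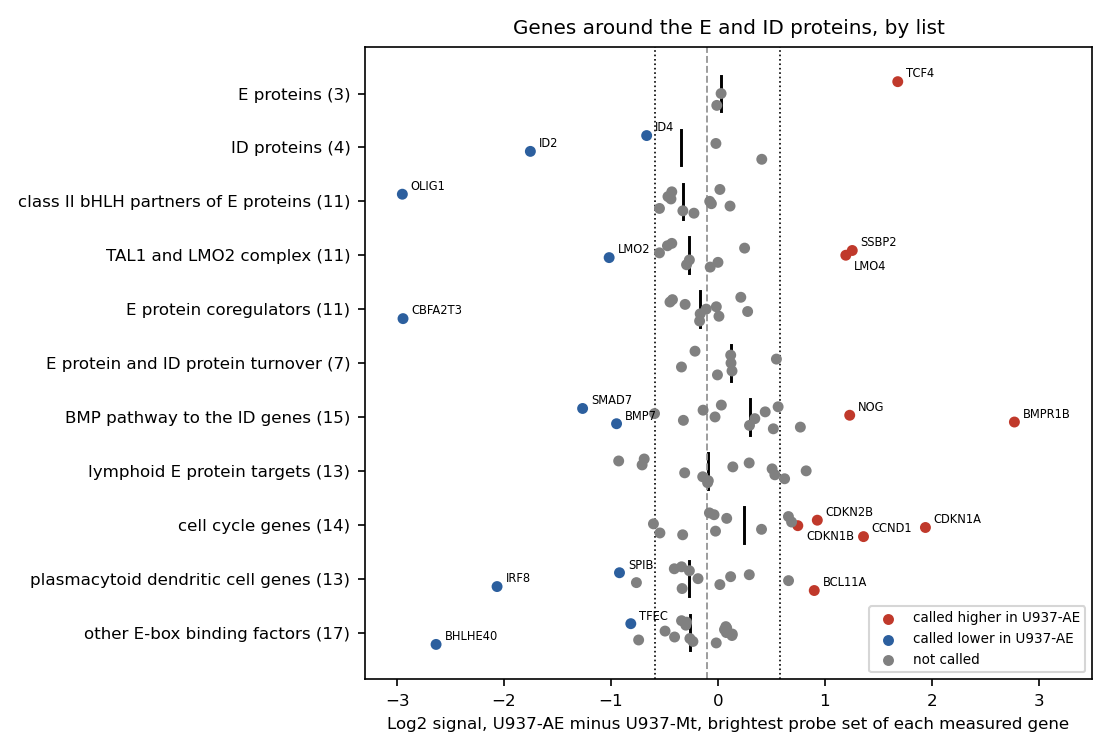
Log2 difference of U937-AE minus U937-Mt for the measured genes of each list (number measured in brackets), with called genes coloured and named; black ticks are list medians, dotted lines mark 1.5-fold and the dashed line is the median of all measured genes, -0.10. Called genes are the minority in every list but that of the ID proteins (2 of 4), with 4 of 14 in the cell cycle list. CBFA2T3, OLIG1 and BHLHE40 lie farthest to the left and BMPR1B farthest to the right.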

How the data were processed

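Expression was read on HG-U133 Plus 2.0 arrays, 2 copies per pool. The values deposited by the authors are linear signal intensities, 1 for every probe set on every array, from GCOS with its default parameters (background correction, then scaling of the array). Of the 54675 probe sets 62 are controls. Outside the controls 41091 have 1 gene symbol and 1801 have several, which name no gene here. Symbols were updated through the gene identifier, so that TCF7L1 and TCF7L2, once also called TCF3 and TCF4, do not count as members.

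From the deposited intensities, values below each array's median over non-control probe sets were raised to that median, and log2 was taken. If the dimmer pool was at the floor on both copies, the fold is a lower bound ("at least"); where neither pool reached it, none is given. Ranges and SDs are over the 4 array comparisons. Arrays of the same number are copies of different pools and do not pair. In the lists the text names each gene called, and a few others with known roles chosen after their values were seen. The members, the lists and the call rule were chosen with earlier results of these data known. The methods' t-test was run only as an alternative, and no call in the report rests on it. Motifs were counted as letters in the RefSeq windows. Python 3.11.15, numpy 2.4.6, pandas 2.3.3 and scipy 1.17.1 were used. Alternatives changed the scaling, the floor, the call rule and the arrays used. With 1 pool per cell line the spread between pools is unknown, and more array copies would narrow the hybridization error only.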

Additional observations from a re-analysis of the deposited data

How the results depend on the processing

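Of the E and ID protein probe sets, 9 were higher and 3 lower in U937-AE cells. At a 75th percentile floor, where 17 member probe sets were measured, 4 were higher. With 2-fold in place of 1.5-fold, 5 were higher and 1 was lower. At a 25th percentile floor 5 were lower. Quantile normalization, the same median and spike-in scaling gave 9, 9 and 10 higher and 2 lower each, as the ID4 call was lost. The methods' t-test on the array copies called 6 higher and 2 lower before adjustment and 0 of either after Benjamini-Hochberg, and it covers the spread between copies only. Leaving out each array in turn gave 9 to 10 higher and 3 to 4 lower. No member probe set that was called changed its direction under any alternative that measured it. With the replicate block, in which only arrays of the same number were compared, 9 were higher and 3 lower. That pairing is of array copies and not of samples. Adding the probe set that names ID2 and ID2B, an alternative chosen after seeing the data, gave 4 lower. The same median, spike-in scaling and quantile normalization moved the median log2 difference of all measured probe sets to 0.19, 0.27 and 0.01, against -0.08 as deposited.

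Over all probe sets, 624 were higher and 1262 lower. The counts were 1750 and 589 at the same median, 2495 and 447 after spike-in scaling, 964 and 2468 at the 25th percentile floor, 375 and 506 at the 75th, 162 and 394 at 2-fold, 1264 and 2914 by the mean difference, and 234 and 589 by the methods' t-test (0 and 0 after adjustment). Leaving out an array gave 898 to 1134 higher and 1875 to 2709 lower, since fewer comparisons must then pass. Of the listed genes, 9 were higher and 9 lower. The counts were 16 and 5 at the same median, 18 and 5 after spike-in scaling, 5 and 5 at the 75th percentile, 3 and 5 at 2-fold, 15 and 16 by the mean difference, and 5 higher by the methods' t-test (0 and 0 after adjustment). With the median of a gene's probe sets 5 were higher, and with the replicate block 13. Leaving out an array gave 11 to 14 higher and 11 to 14 lower. Signals under the floor have no order. Of the 35 member probe sets 20 were above it on all arrays, and the others, which include 212382_at and 228837_at of TCF4, 202648_at and 228052_x_at of TCF3 and the probe set of ID3, have differences whose size depends on the floor.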
